A study of Mus musculus with 5 samples.

Results

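The 36 genes described here are a set of mouse hypoxia targets and glycolysis enzymes, chosen by symbol: 5 genes of oxygen sensing, 11 targets of the hypoxia response, 3 transporters of glucose and lactate, 14 enzymes of glycolysis and 3 regulators of its flux. They were chosen with earlier results of these data known. They were found in all 5 RNA-seq libraries among the 55401 genes measured. Of the 36, 33 averaged 1 FPKM or more across the libraries, as did 12113 genes in all. FPKM stands for fragments per kilobase of exon, relative to the reads of the library. The cells were BMSCs, mesenchymal stem cells from the bone marrow of wild-type mice, which grow attached to the dish and can become bone, fat or cartilage cells. They were grown for 72 h, and a vacuum pump held a continuous negative pressure of -80, -120, -160 or -200 mmHg for 48 h. The control was cultured at 0 mmHg. There was 1 library per condition, so no difference has a replicate check, and no p-value is given.

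Hypoxia-inducible factor is the transcription factor that cells use to answer low oxygen. Its alpha subunits are hydroxylated by the Egln enzymes when oxygen is present, bound by the von Hippel-Lindau protein and degraded. In low oxygen they persist, pair with Arnt and bind the hypoxia response element, whose core letters are ACGTG or GCGTG, next to genes for glucose uptake, glycolysis, lactate export, mitophagy and blood vessel growth. Marrow is a tissue of low oxygen, and its stromal cells rely strongly on glycolysis.

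The library totals lay between 16600622 and 18398911 reads. FPKM values multiplied by exon length gave back whole reads for 98.8% of all genes and for the 36 members. Of 14 markers of marrow stroma 12 were measured, of which 5 lay above the control at all 4 pressures and 7 below it. Their sum lay between 2479 and 2705 FPKM under pressure, against 3896 FPKM in the control. Ly6a, a surface antigen of mouse stromal cells, lay between 622 and 828 FPKM under pressure, against 1740.5 FPKM in the control. Pdgfra, a receptor of stromal cells, lay between 63.7 and 71.5 FPKM under pressure, against 44.3 FPKM in the control. The leukocyte marker Ptprc was at 0 in 4 libraries and at 0.00605 FPKM at -200 mmHg. Other blood-lineage markers were present. Summed macrophage markers lay between 66.8 and 74.8 FPKM under pressure, against 27.5 FPKM in the control. Granulocyte markers summed to 24.1 to 31.2 FPKM under pressure, against 8.99 FPKM in the control. Osteoclast markers summed to 3.802 to 4.87 FPKM under pressure, against 90.1 FPKM in the control. The stromal surface marker Thy1 lay between 1.001 and 1.83 FPKM under pressure, against 0.0181 FPKM in the control. In each pressure library 4 genes of the Y chromosome (Ddx3y, Eif2s3y, Uty and Kdm5d) had 0 reads, against 2493 reads in the control. An effect of pressure and another origin of the control cells therefore cannot be told apart, and every difference from the control below rests on that library.

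The core letters of the hypoxia response element were looked up at the start sites of the members. The windows are RefSeq promoters of build GRCm38.p6, 300 bases long, with 250 bases before the start and 50 after it, and 32 of the 36 members had at least 1 window. The motifs ACGTG and GCGTG were searched on both strands, so their reverse complements CACGT and CACGC were found too, and the letters CACGTG hold ACGTG on each strand and count as 2 matches. At least 1 match was present in 28 of the 32 members (87.5%), against 68.8% of the 8781 measured genes with a window. ACGTG alone was present in 22 of the 32 (68.8%), against 29.9% of the measured genes. Of the 10 matched members that stood higher at -160 mmHg by the rule given below, 9 held either motif and 6 held ACGTG, and of the 21 other measured members 19 and 16 did. A match describes letters only and says nothing of binding. Among those that stood higher, Tpi1 had 0 matches, and the windows of Pdk1, Pfkl and Eno1 held no ACGTG. Ldha has a second window, not printed, with 2 matches of GCGTG and none of ACGTG. The windows of 5 members that stood higher at -160 mmHg, all 5 with ACGTG, are printed 5′ to 3′ on the gene's strand. They are thus richer in ACGTG than the rest of that group, and capitals mark the matches. They are Ldha (chr7:46845554-46845853, plus strand, 7 matches), Pgk1 (chrX:106186850-106187149, plus strand, 2 matches), Bnip3 (chr7:138909457-138909756, minus strand, 5 matches), Ankrd37 (chr8:45999801-46000100, minus strand, 4 matches) and Slc16a3 (chr11:120948817-120949116, plus strand, 2 matches).
Ldha: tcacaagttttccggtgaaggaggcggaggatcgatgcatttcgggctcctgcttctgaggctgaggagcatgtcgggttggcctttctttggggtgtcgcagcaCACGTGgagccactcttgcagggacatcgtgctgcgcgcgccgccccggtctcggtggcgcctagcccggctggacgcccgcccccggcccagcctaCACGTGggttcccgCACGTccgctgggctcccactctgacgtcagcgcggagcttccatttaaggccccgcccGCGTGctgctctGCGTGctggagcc
Pgk1: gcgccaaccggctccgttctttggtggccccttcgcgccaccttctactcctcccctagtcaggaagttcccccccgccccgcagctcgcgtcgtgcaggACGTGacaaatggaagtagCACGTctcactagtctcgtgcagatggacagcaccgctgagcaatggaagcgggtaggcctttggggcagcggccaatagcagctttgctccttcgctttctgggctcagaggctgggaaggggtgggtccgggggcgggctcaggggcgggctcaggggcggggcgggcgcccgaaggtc
Bnip3: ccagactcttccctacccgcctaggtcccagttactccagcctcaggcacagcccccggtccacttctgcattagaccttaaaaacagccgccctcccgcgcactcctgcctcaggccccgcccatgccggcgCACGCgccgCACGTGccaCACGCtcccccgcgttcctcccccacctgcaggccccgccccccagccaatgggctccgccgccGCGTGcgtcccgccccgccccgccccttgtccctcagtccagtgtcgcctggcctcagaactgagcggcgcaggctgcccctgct
Ankrd37: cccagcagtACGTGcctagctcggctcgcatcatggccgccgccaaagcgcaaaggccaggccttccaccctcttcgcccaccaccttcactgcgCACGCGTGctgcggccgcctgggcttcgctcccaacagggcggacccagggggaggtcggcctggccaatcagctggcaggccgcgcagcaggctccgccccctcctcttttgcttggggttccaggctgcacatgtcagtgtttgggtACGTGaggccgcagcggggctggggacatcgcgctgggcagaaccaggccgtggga
Slc16a3: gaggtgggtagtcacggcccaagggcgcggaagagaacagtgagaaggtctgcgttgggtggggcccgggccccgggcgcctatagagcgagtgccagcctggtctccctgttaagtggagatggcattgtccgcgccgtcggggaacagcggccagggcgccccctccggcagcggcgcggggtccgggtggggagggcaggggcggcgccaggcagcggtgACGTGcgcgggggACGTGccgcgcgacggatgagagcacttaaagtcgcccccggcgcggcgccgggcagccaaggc

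The first question was how the members stood under pressure relative to the control. On the log2(FPKM + 1) scale a gene counted as higher or lower when it differed by at least 1, that is by 2-fold, at all 4 pressures. By this rule Hif1a and Pfkfb3 were higher, 2 of 33 members, where 6.49% of the 12113 genes were. Egln3, Adm, Slc16a3, Aldoc and Eno1 were lower, 5 of 33, where 4.46% of all genes were. Without the -160 mmHg library 8 members were lower at every remaining pressure, because Ankrd37, Mif and Pfkp passed the rule at -80, -120 and -200 mmHg. Of these, Ankrd37 reached the mean of 1 FPKM only through the control. The other 23 members passed it at no pressure, as did 78.1% of all genes. At -80, -120, -160 and -200 mmHg alone 2 members were higher each time, where 10.7%, 8.85%, 9.59% and 9.10% of all genes were, and 8, 8, 5 and 8 were lower at -80, -120, -160 and -200 mmHg, where 6.89%, 6.45%, 6.03% and 6.38% of all genes were lower.

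Most members lay below the control. In 20 of 33 members all 4 pressure values were below the control, against 33.3% of all genes. The median log2 difference over the members was -0.43, -0.35, -0.05 and -0.36 at -80, -120, -160 and -200 mmHg, and over all genes it was 0.16, 0.14, 0.15 and 0.14. The members' median of the mean over pressures was -0.34, against 0.15 for all genes, but it was 0.09 after quantile normalization, so the direction for the set as a whole depends on the scaling. By role the medians were 0.49 for oxygen sensing, -0.10 for hypoxia targets, -1.48 for the measured transporters, -0.39 for glycolysis enzymes and 0.58 for regulators of flux. In such bulk samples fewer cells of a type and less RNA per cell cannot be told apart.

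**Figure D1:**
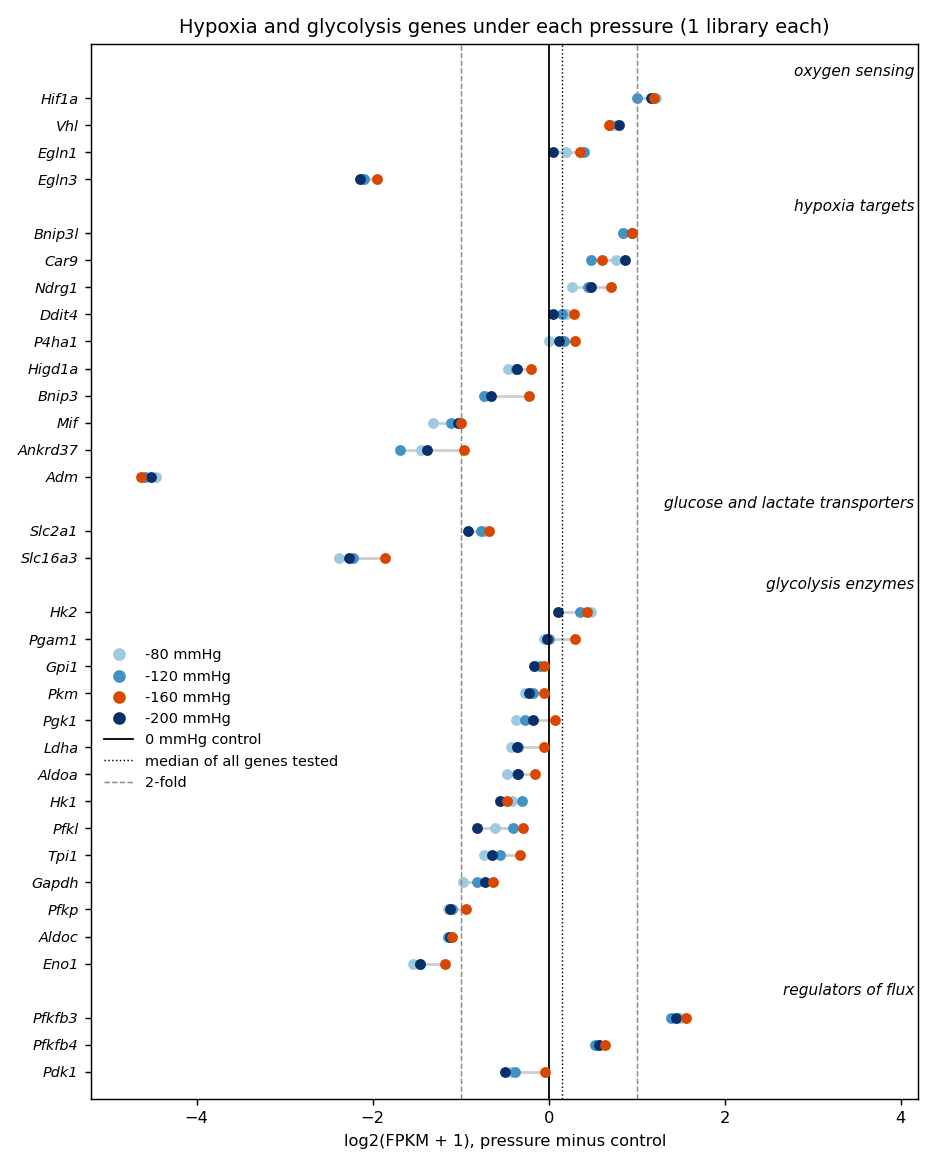
Difference of log2(FPKM + 1), pressure minus control, for the 33 measured members by role, with 1 point per pressure library, the control at the solid line, the median of all genes at the dotted line and 2-fold at the dashed lines. Hif1a and Pfkfb3 lie at or past the upper dashed line at all 4 pressures, Adm lies farthest to the left, and the -160 mmHg point is the rightmost of the 4 in 25 members.

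Among the genes of oxygen sensing the alpha subunit and its hydroxylase Egln3 stood on opposite sides of the control. Hif1a, the alpha subunit of hypoxia-inducible factor, measured 149, 128, 146 and 143 FPKM at -80, -120, -160 and -200 mmHg, against 63.3 FPKM in the control. The 4 pressure libraries all lay above the control, as they did in 51.5% of all genes. Together they had 2.23 times as many reads per library total (95% counting interval 2.18 to 2.29). At -120 mmHg Hif1a lay at the limit of the rule, and it no longer passed at every pressure with a trimmed mean, upper-quartile scaling, a pseudocount of 5 FPKM or the exon-length trend removed. Egln3, a prolyl hydroxylase that is itself a hypoxia target, measured 1.197, 1.22, 1.48 and 1.17 FPKM under these pressures, against 8.55 FPKM in the control. These were 53, 54, 67 and 56 reads at -80, -120, -160 and -200 mmHg, against 419 reads in the control, a ratio of 0.148 (0.125 to 0.174).

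The remaining sensors moved by less than the rule. Egln1, the main oxygen-dependent hydroxylase of Hif1a, lay between 31.2 and 40.03 FPKM under pressure, against 30.05 FPKM in the control. Vhl, which marks hydroxylated alpha subunits for degradation, lay between 18.9 and 20.7 FPKM under pressure, against 11.5 FPKM in the control, with log2 differences of 0.68 to 0.80. Epas1, the second alpha subunit, had a mean below 1 FPKM and entered no count. Its 75, 111, 109 and 87 reads at -80, -120, -160 and -200 mmHg stood against 12 reads in the control.

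Of the hypoxia targets 3 passed the rule against the control at 3 or more pressures, all downward. Adm, the vasodilator peptide adrenomedullin, measured 2.005, 1.75, 1.67 and 1.88 FPKM at -80, -120, -160 and -200 mmHg, against 65.03 FPKM in the control. The pressure libraries lay close to each other, with 46 to 55 reads each, against 1937 reads in the control, and the pooled ratio was 0.0281 (0.0242 to 0.0325). Its log2 differences of -4.63 to -4.46 were the lowest of the 33 members. Ankrd37, a small ankyrin repeat protein, measured 0.508, 0.274, 1.11 and 0.576 FPKM at -80, -120, -160 and -200 mmHg, against 3.11 FPKM in the control. It rests on few reads, 13, 7, 29 and 16 under these pressures and 88 in the control. Its mean of 1.11 FPKM reached the limit of 1 FPKM only through the control. Its log2 difference was -0.96 at -160 mmHg and between -1.69 and -1.38 at the other 3 pressures.

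Mif, a cytokine that inhibits macrophage migration, was the most abundant of these targets. It measured 678, 784, 848 and 829 FPKM at -80, -120, -160 and -200 mmHg, against 1693 FPKM in the control. Its log2 difference at -160 mmHg fell just short of the rule. The size of the difference depended on the scaling. Its log2 differences were -1.50 to -1.18 with the trimmed mean and -0.59 to -0.33 with quantile normalization. The pair of mitophagy receptors diverged without either passing the rule. Bnip3 lay between 23.6 and 34.1 FPKM under pressure, against 40.1 FPKM in the control, and Bnip3l lay between 67.1 and 72.7 FPKM under pressure, against 37.1 FPKM in the control. Bnip3 therefore made up 26.1%, 26.01%, 31.96% and 25.6% of the FPKM of the pair at -80, -120, -160 and -200 mmHg, against 51.98% in the control.

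The other 5 measured targets stayed within the rule at each pressure. Car9, a carbonic anhydrase of the cell surface, had 54, 38, 46 and 67 reads at -80, -120, -160 and -200 mmHg, against 18 reads in the control, with log2 differences of 0.48 to 0.87. Its read ratio was 3.07 (1.89 to 5.28). With a pseudocount of 0.1 FPKM its log2 differences were 1.06 to 1.71, and it passed the rule as higher at every pressure. Its mean of 1.12 FPKM reached the limit of 1 FPKM only through the pressure libraries, as the control measured 0.425 FPKM. Ndrg1, a stress-induced protein, had log2 differences of 0.26 to 0.71. P4ha1, a subunit of the hydroxylase that modifies collagen prolines, lay between 82.1 and 101 FPKM under pressure, against 82.3 FPKM in the control. Ddit4, an inhibitor of mTORC1, lay between 51.5 and 61.1 FPKM under pressure, against 49.7 FPKM in the control. These members were thus near or above the control, and Higd1a, a mitochondrial inner membrane protein, was below it with 12.3 to 14.9 FPKM under pressure, against 17.3 FPKM in the control. The carbonic anhydrase Car12 had a mean below 1 FPKM, with 0.451 to 0.6502 FPKM under pressure and 0.544 FPKM in the control.

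Both measured transporters were below the control at every pressure. Slc16a3, the lactate exporter MCT4, measured 2.71, 3.14, 4.2996 and 2.99 FPKM at -80, -120, -160 and -200 mmHg, against 18.3 FPKM in the control. All pressure values were well under the control, with a read ratio of 0.1798 (0.167 to 0.194), and the highest of the 4 was at -160 mmHg. Slc2a1, the glucose transporter GLUT1, lay between 26.5 and 31.6 FPKM under pressure, against 51.1 FPKM in the control, with log2 differences of -0.92 to -0.68. Slc2a3, the transporter GLUT3, had a mean below 1 FPKM and measured 0.955 to 1.13 FPKM under pressure, against 0.758 FPKM in the control. Slc16a1, the related lactate transporter MCT1, stood on the other side of the control, with 221, 214, 241 and 228 FPKM at -80, -120, -160 and -200 mmHg, against 42.3 FPKM in the control. Slc16a3 made up 1.21% to 1.75% of the FPKM of both under pressure, against 30.2% in the control.

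Glycolysis enzymes as a group lay below the control, 11 of 14 at all 4 pressures, although Gpi1, Aldoa, Pgk1, Pkm and Ldha averaged above it after quantile normalization, and Gpi1, Pgk1 and Pkm also with the 50 most abundant genes left out of the total. The summed FPKM of the 14 was 2167, 2343, 2735 and 2351 at -80, -120, -160 and -200 mmHg, against 3262 in the control. As a share of the FPKM of all genes the sum was 0.724%, 0.761%, 0.894% and 0.749% under these pressures, against 0.9002% in the control. The share at -160 mmHg was thus close to that of the control, and the other 3 pressures lay lower.

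Only Eno1 and Aldoc passed the rule at all 4 pressures among the 14. Eno1, enolase, measured 84.7, 89.9, 109.7 and 90.1 FPKM at -80, -120, -160 and -200 mmHg, against 249 FPKM in the control, a read ratio of 0.376 (0.3699 to 0.382). Eno1b is a near-identical copy that may share its reads, and the sum of both measured 135, 146, 177 and 146 FPKM at these pressures, against 406 FPKM in the control, so the difference was as large for the sum. Eno1 lost its call with the 50 most abundant genes left out or with quantile normalization. Aldoc, a minor aldolase here, measured 1.38, 1.33, 1.39 and 1.36 FPKM at -80, -120, -160 and -200 mmHg, against 4.13 FPKM in the control. Its call was lost with a pseudocount of 5 FPKM, the 50 most abundant genes left out or the exon-length trend removed. Pfkp, the platelet-type phosphofructokinase, measured 1.51, 1.58, 1.88 and 1.55 FPKM at -80, -120, -160 and -200 mmHg, against 4.53 FPKM in the control, and only its log2 difference of -0.94 at -160 mmHg missed the rule.

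The more abundant enzymes differed from the control by less. Gapdh, which oxidises glyceraldehyde 3-phosphate, had the largest gap of these, with 387 to 493 FPKM under pressure, against 764 FPKM in the control. Its log2 differences were -0.98 to -0.63. They became -1.16 to -0.81 with the trimmed mean and -0.29 to 0.02 with quantile normalization. Pkm, pyruvate kinase, lay between 379 and 441 FPKM under pressure, against 457 FPKM in the control. Aldoa, the main aldolase, lay between 312 and 387 FPKM under pressure, against 433 FPKM in the control, and a second, minor Aldoa entry of the annotation had 10 to 15 reads per pressure library and 16 in the control. At the entry to the pathway the hexokinases lay on opposite sides of the control: Hk1 lay between 13.4 and 16.2 FPKM under pressure, against 20.3 FPKM in the control, and Hk2 between 7.42 and 9.86 FPKM under pressure, against 6.78 FPKM in the control. Gpi1, glucose phosphate isomerase, lay near the control, with 79.3 to 86.1 FPKM under pressure, against 89.02 FPKM in the control.

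**Figure D2:**
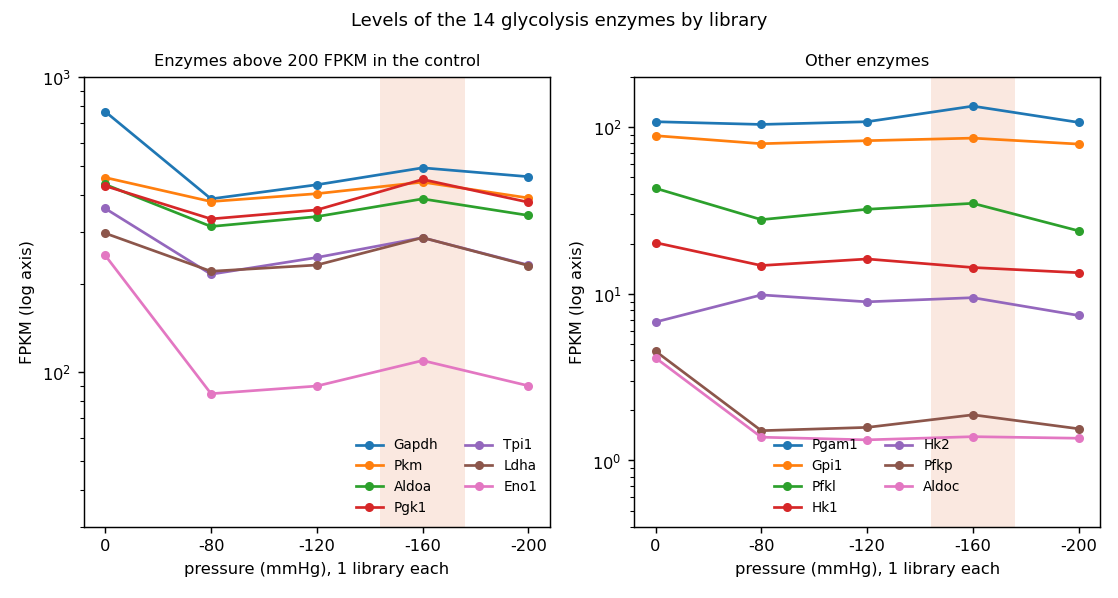
FPKM (log axis) of the 14 glycolysis enzymes in the 5 libraries, 1 point per library, with -160 mmHg shaded; enzymes above 200 FPKM in the control are on the left and the others on the right. Within the 4 pressures 12 of the 14 lines peak in the shaded band, and Hk1 and Hk2 do not.

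The regulators of flux did not move together. Pfkfb3, which makes fructose 2,6-bisphosphate, the activator of phosphofructokinase, measured 7.56, 7.01, 7.98 and 7.34 FPKM at -80, -120, -160 and -200 mmHg, against 2.05 FPKM in the control. All 4 pressure values lay above the control, as they did in 51.5% of all genes. The read ratio of 3.65 (3.23 to 4.13) was the largest of the measured members. With a pseudocount of 5 FPKM the call was lost. Pfkfb4, a related enzyme, lay between 3.52 and 3.91 FPKM under pressure, against 2.15 FPKM in the control. Pdk1, a kinase that switches off pyruvate dehydrogenase, lay between 5.37 and 7.77 FPKM under pressure, against 8.03 FPKM in the control.

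The second question was whether the -160 mmHg library differed from the other 3 pressures. A gene counted here when its log2(FPKM + 1) at -160 mmHg was outside the range of -80, -120 and -200 mmHg and at least 0.3 from their mean. By this rule 11 of 33 members were higher at -160 mmHg, where 3.67% of all genes were, and 0 were lower, where 2.32% were. At any size 25 of 33 members had their highest pressure value at -160 mmHg, against 25.4% of all genes, and 29 lay above the mean of the other 3, against 53.8%. The members' median difference was 0.18, with a range of -0.11 to 0.54, and the median of all genes was 0.01. Because the members were chosen with earlier results of these data known, the shares above describe the set and are no independent check. The 11 were Bnip3, Ndrg1, Ankrd37, Slc16a3, Pfkl, Tpi1, Pgk1, Pgam1, Eno1, Ldha and Pdk1. Tpi1 and Eno1 lay just inside the limit with 0.31 each, and Aldoa with 0.23 and Gapdh with 0.21 lay outside it.

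The same measure taken for the other pressures gave few calls. Of the members 0 were higher at -80, -120 or -200 mmHg, where 2.75%, 2.41% and 2.31% of all genes were. At -80 mmHg 0 were lower, where 2.89% of all genes were, at -120 mmHg Ankrd37 was, where 3.05% were, and at -200 mmHg Hk2 and Pfkl were, where 2.82% were. The highest pressure value fell on -80 mmHg in 3 members, on -120 mmHg in 2 and on -200 mmHg in 3, where it did in 26.8%, 24.2% and 23.6% of all genes. The lowest fell on -80 mmHg in 14 members, on -120 mmHg in 8, on -160 mmHg in 2, which were Vhl and Adm, and on -200 mmHg in 9, where it did in 25.8%, 28.1%, 18.4% and 27.5% of all genes. The values therefore followed no steady order with pressure.

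**Figure D3:**
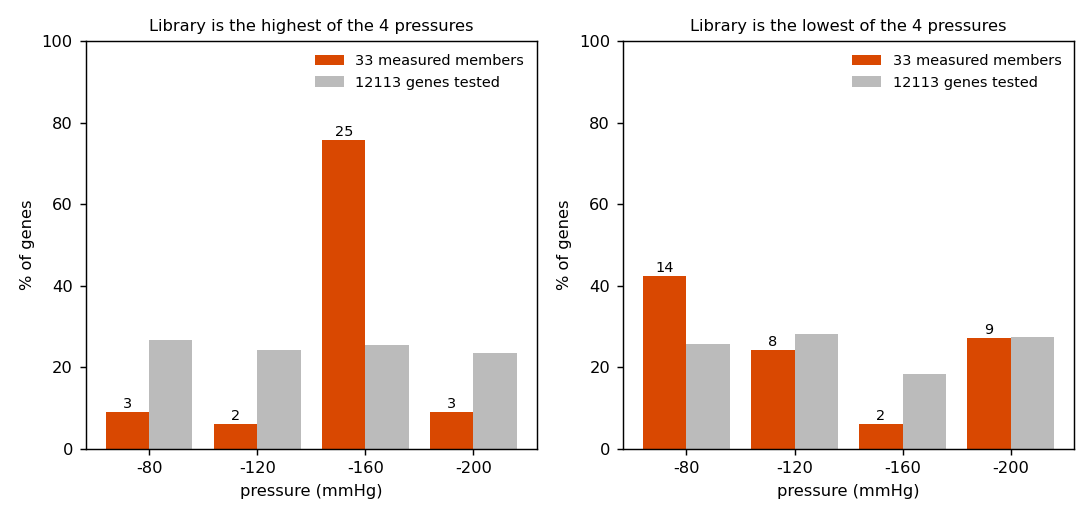
Share of genes (%) whose highest value (left) or lowest value (right) among the 4 pressure libraries fell on each pressure, for the 33 measured members and for the 12113 genes, with the number of members above each bar. The members' bar for the highest value stands at -160 mmHg with 25 members, where 25.4% of all genes have theirs, and the bars for the lowest value there are the shortest for the members and for all genes.

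Among the glycolysis enzymes 12 of 14 were highest at -160 mmHg within the pressures, and 6 passed the rule. Pgk1, which makes the first ATP of the pathway, measured 450.4 FPKM at -160 mmHg, against 331, 355 and 377 FPKM at -80, -120 and -200 mmHg and 428 FPKM in the control. Ldha, which reduces pyruvate to lactate, measured 286 FPKM at -160 mmHg, against 220.03, 231 and 230.1 FPKM at -80, -120 and -200 mmHg and 296 FPKM in the control. In both genes -160 mmHg came near the control while the other pressures stayed below it. Per library total, Pgk1 had 1.27 times (1.25 to 1.29) and Ldha 1.26 times (1.24 to 1.28) the reads of the other 3 pressures at -160 mmHg.

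Pgam1, the mutase after Pgk1, measured 134 FPKM at -160 mmHg, against 104, 108 and 107 FPKM at -80, -120 and -200 mmHg and 108 FPKM in the control. It was the only enzyme of the 14 besides Pgk1 and Hk2 to stand above the control at -160 mmHg. Tpi1, triose phosphate isomerase, measured 286 FPKM at -160 mmHg, against 215, 245 and 231 FPKM at -80, -120 and -200 mmHg and 359 FPKM in the control. Pfkl, the liver-type phosphofructokinase, measured 34.96 FPKM at -160 mmHg, against 27.9, 32.2 and 23.9 FPKM at -80, -120 and -200 mmHg and 43.05 FPKM in the control. Both lay between the other pressures and the control. Eno1, with the values given above, had 1.24 times (1.21 to 1.27) the reads of the other 3 pressures, and its sum with Eno1b stood 0.32 higher on the log2 scale. Eno1 lost this call with a pseudocount of 5 FPKM, the trimmed mean or the exon-length trend removed, and Tpi1 lost it with the trimmed mean.

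Of the hypoxia targets Bnip3, Ndrg1 and Ankrd37 passed the rule. Bnip3 measured 34.1 FPKM at -160 mmHg, against 23.7, 23.6 and 25.04 FPKM at -80, -120 and -200 mmHg and 40.1 FPKM in the control, 1.41 times (1.32 to 1.51) the reads of the other 3 pressures. Ndrg1 measured 23.6 FPKM at -160 mmHg, against 16.96, 19.4 and 19.9 FPKM at -80, -120 and -200 mmHg and 13.97 FPKM in the control. Ndrg1 was above the control at every pressure, whereas Bnip3 was below it. Ankrd37 had the largest difference of the 33, 0.54, on the few reads given above, and its read ratio was 2.43 (1.44 to 4.07). It entered this count only through its level in the control. Slc16a3 had a ratio of 1.46 (1.29 to 1.65). Pdk1 measured 7.77 FPKM at -160 mmHg, against 5.69, 5.94 and 5.37 FPKM at -80, -120 and -200 mmHg and 8.03 FPKM in the control. Ndrg1, Ankrd37, Slc16a3, Pfkl and Pdk1 lost their calls with a pseudocount of 5 FPKM.

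The 4 members that lay below the mean of the other 3 pressures at -160 mmHg were Vhl, Adm, Car9 and Hk1, with log2 differences of -0.07, -0.11, -0.10 and -0.04. Hif1a, with 0.06, differed little between the pressures. Below the control and yet above all 3 other pressures at -160 mmHg were 18 of 33 members, where 8.99% of all genes were. The 95% counting interval of the read ratio lay above 1 in 26 of 33 members and below 1 in 0, against 18.3% and 13.3% of the 11911 genes with whole reads. These intervals cover counting error only, and they compare libraries, not conditions. They narrow with read number, for which the members and all genes were not matched. Gpi1, with a ratio of 1.07 (1.04 to 1.09), was among the members above 1.

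**Figure D4:**
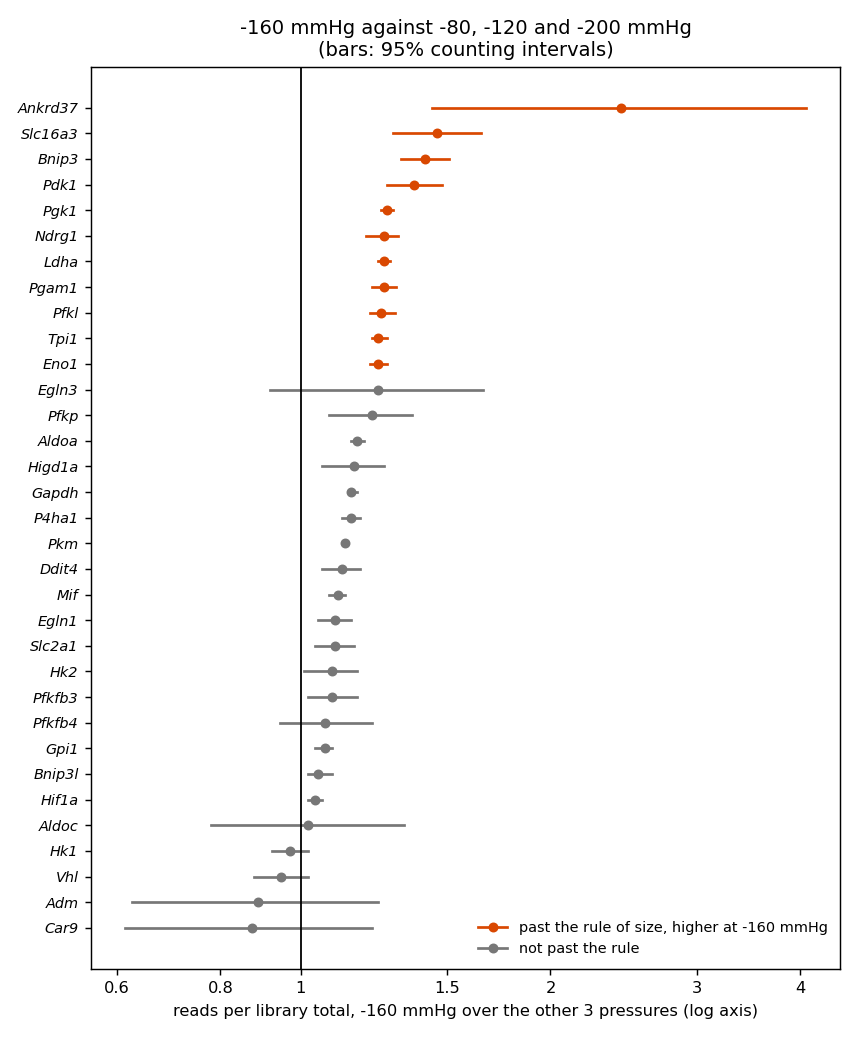
Reads per library total at -160 mmHg over those of the other 3 pressures together (log axis) for the 33 measured members, with 95% counting intervals as bars and the 11 members past the rule of size in orange. Ankrd37 has the largest ratio and the widest interval, Pgk1 at 1.27 has a narrow one, and 26 intervals lie above 1.

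Genes of cell division moved with this result, but their list was chosen with its movement across these libraries already known. All 20 listed proliferation genes were highest at -160 mmHg within the pressures, against 25.4% of all genes, and 16 passed the rule there, against 3.67%. Their summed level was 251 FPKM at -160 mmHg, against 174, 173 and 181 FPKM at -80, -120 and -200 mmHg and 509 FPKM in the control. In this sum, as in that of the glycolysis enzymes, -160 mmHg was the highest pressure and the control was higher still. Rrm2, a subunit of ribonucleotide reductase, measured 15.7 FPKM at -160 mmHg, against 8.31, 7.33 and 9.13 FPKM at -80, -120 and -200 mmHg and 18.9 FPKM in the control. Against the control 9 of the 20 were lower at all 4 pressures, where 4.46% of all genes were, and 15 were without the -160 mmHg library. Ccnb2, a mitotic cyclin, lay between 9.77 and 15.1 FPKM under pressure, against 56.3 FPKM in the control. Summed markers of macrophages were 66.8 FPKM at -160 mmHg, against 68.7 to 74.8 FPKM at the other pressures and 27.5 FPKM in the control, with 3 of 6 measured. Summed granulocyte markers were 24.1 FPKM at -160 mmHg, against 25.97 to 31.2 FPKM at the other pressures and 8.99 FPKM in the control, with 2 of 7 measured. Osteoclast markers, 2 of 6 measured, summed to 3.802 to 4.87 FPKM under pressure, against 90.1 FPKM in the control. The part of these lists in the members' results was not tested.

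Partners that carry out the same step stood elsewhere than the members in several cases; the partners were picked after their values were seen. Ldhb, the lactate dehydrogenase subunit of oxidative tissues, lay between 116 and 127 FPKM under pressure, against 75.2 FPKM in the control. Ldha made up 65.5%, 64.5%, 70.3% and 65.2% of the FPKM of both at -80, -120, -160 and -200 mmHg, against 79.7% in the control. Pfkm, the muscle-type phosphofructokinase, lay between 27.9 and 31.5 FPKM under pressure, against 29.3 FPKM in the control. Hk2 made up 35.6% to 39.9% of the FPKM of Hk1 and Hk2 under pressure, against 25.1% in the control. Ldha, Bnip3 and Slc16a3 thus held a smaller share of their pairs under pressure than in the control, and Hk2 a larger one.

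**Figure D5:**
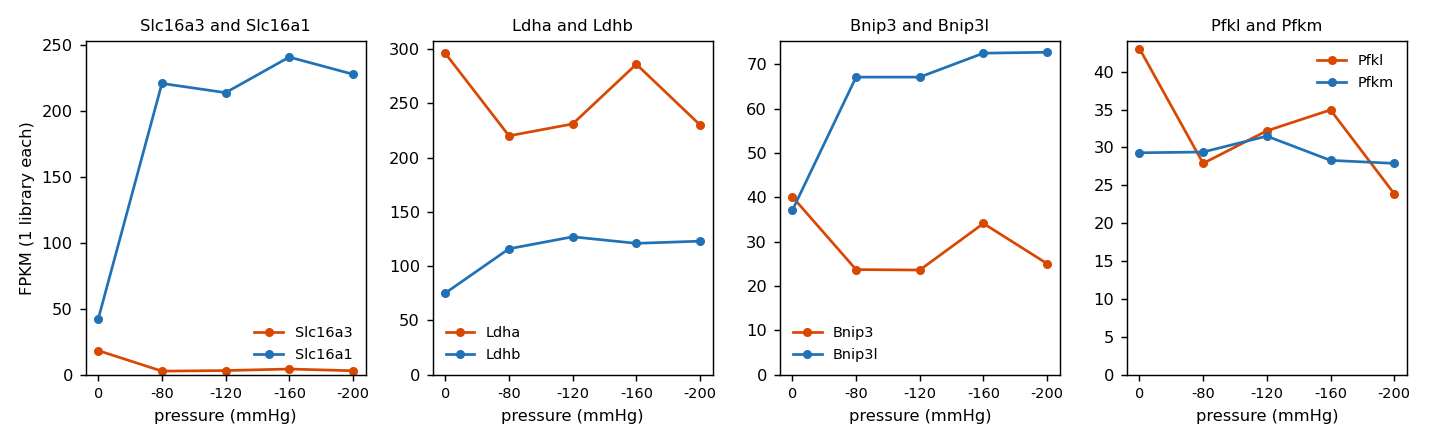
FPKM of 4 members (orange) and their partner genes (blue) in the 5 libraries, 1 point per library, each panel with its own axis from 0. Slc16a1, Ldhb and Bnip3l lie higher under pressure than in the control while Slc16a3, Ldha and Bnip3 lie lower, and Bnip3l exceeds Bnip3 in the 4 pressure libraries alone.

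Other genes of the same pathways, listed by function, gave a mixed picture. Of 33 other measured hypoxia targets 4 were higher and 5 lower than the control at all 4 pressures, where 6.49% and 4.46% of all genes were. Their median difference was 0.24. Nos2, the inducible nitric oxide synthase, measured 0.839, 0.692, 1.03 and 0.861 FPKM at -80, -120, -160 and -200 mmHg, against 28.8 FPKM in the control. Its mean reached the limit of 1 FPKM only through the control. Igfbp3, which binds insulin-like growth factors, lay between 9.86 and 11.6 FPKM under pressure, against 64.98 FPKM in the control. Bhlhe40, a circadian and hypoxia-regulated repressor, went the other way with 51.7 to 58.8 FPKM under pressure, against 15.7 FPKM in the control, as did Selenbp1 with 2.92 to 3.73 FPKM under pressure, against 0.263 FPKM in the control. The mean of Selenbp1 reached the limit of 1 FPKM only through the pressure libraries. At -160 mmHg 16 of the 33 were highest within the pressures, against 25.4% of all genes. The rule was passed there by 2, against 3.67% of all genes. These 2 were the transferrin receptor Tfrc with a difference of 0.66 and the glycogen branching enzyme Gbe1 with 0.43.

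Other lists of the pathway and of metabolism were compared in the same way. Of all genes 25.4% were highest at -160 mmHg within the pressures, and 3.67% passed the rule as higher there. The 11 measured partners and regulators of hypoxia-inducible factor had a median of -0.01 there, with 2 highest and 0 past the rule, and 0 differed from the control at all 4 pressures. The 20 tricarboxylic acid cycle genes had a median of 0.03, with 7 highest and 0 past the rule, and a median difference from the control of -0.29. Of the 12 measured mitophagy genes 0 were highest at -160 mmHg. Of 16 genes of lactate and pyruvate handling 2 were highest at -160 mmHg, and against the control Slc16a1 was higher and Pdk4, a kinase of the same family as Pdk1, lower with 2.96 to 3.68 FPKM under pressure, against 8.99 FPKM in the control. Of 16 pentose phosphate and glycogen genes 6 were highest at -160 mmHg. Gbe1, also counted among the other hypoxia targets, passed the rule there with 0.43. Gys1 is likewise in both lists, and Egln2 is among both the other hypoxia targets and the regulators of hypoxia-inducible factor. Pygl, the liver glycogen phosphorylase, was lower than the control, with 0.0697 to 0.145 FPKM under pressure, against 4.91 FPKM in the control. The mean of Pygl reached the limit of 1 FPKM only through the control. Of 10 genes listed as other glycolysis isoenzymes 2 were highest at -160 mmHg, and Eno1b passed the rule there with a difference of 0.32. Of these 10, Ldhd was higher than the control, with 2.34 to 3.46 FPKM under pressure, against 0.143 FPKM in the control, and Eno1b was lower. Ldhd is a D-lactate dehydrogenase, not an isoenzyme of Ldha. Its mean reached the limit of 1 FPKM only through the pressure libraries. Of 12 mTORC1 regulators 3 were highest at -160 mmHg, and Sesn3, a stress-induced inhibitor of mTORC1, was higher than the control, with 9.33 to 10.3 FPKM under pressure, against 4.16 FPKM in the control. The 3 measured sugar transporters had a median of 0.21 at -160 mmHg against the other pressures, with 1 highest there and 0 past the rule. Slc2a6 and Slc2a10 among the 3 reached the mean of 1 FPKM only through the control. Of these 3 and of 2 gluconeogenesis genes 0 passed the rule against the control at all 4 pressures. Leaving out a pressure gave 2 higher genes of the isoenzyme list without -80 mmHg. It gave 2 higher mTORC1 regulators without -120 mmHg or without -200 mmHg. Without -160 mmHg it gave 1 lower sugar transporter, Slc2a10, which was measured only through the control.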

How the data were processed

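RNA-seq of 5 libraries, 1 per condition, was analysed from 1 table of FPKM per gene and library that the authors deposited. The build in the submitters' processing notes is rn6, of the rat, and the tools are featureCounts 1.5.0-p3, SAMtools and HISAT2, yet all IDs are mouse Ensembl genes and mouse exon lengths turn the values into whole reads, so a mouse annotation was behind the table. The strand setting is not given in the sources that were used, and overlapping genes and near-identical copies, including pseudogenes of glycolysis enzymes, may share reads.

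Symbols and exon lengths came from GENCODE release M21, in which 55141 of 55401 IDs matched. Of these, 54349 matched with their version. FPKM times exon length gave whole reads for 54719 genes (98.8%, tolerance 0.001 reads), and these were used for read numbers and counting intervals (exact Clopper-Pearson, 95%). No molecular identifiers are named in the labels, so reads may be copies, and the intervals cover counting error only. A count of 0 reads allows up to 3 reads per library. Columns of other samples numbered 0.

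Differences were taken on log2(FPKM + 1), which understates changes of low genes, for genes that averaged 1 FPKM or more. Members past a rule of size are given in full, at 3 or more pressures against the control or at -160 mmHg, and up to 4 genes per related list, plus up to 2 past the rule at -160 mmHg. The members and lists were chosen with earlier results of these data known. Alternatives were pseudocounts, filters, 4 scalings, exon length, thresholds and leaving out each library. Leaving out a pressure for the related lists was added after the data were seen. Scripts were tested on simulated data. The software was scipy 1.17.1, numpy 2.4.6, matplotlib 3.10.9 and pandas 2.3.3 under Python 3.11.15.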

Additional observations from a re-analysis of the deposited data

How the results depend on the processing

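The median difference at -160 mmHg stayed between 0.16 and 0.20 under all settings run, and 0 members were lower there in any. The 11 members higher at -160 mmHg became 5 with a pseudocount of 5 FPKM and 1 with a threshold of 0.5, and 8 to 11 when each other pressure was left out. The 5 members lower than the control became 3 with a mean of at least 5 FPKM, 8 with the trimmed mean, 3 with the 50 most abundant genes left out, 10 with a 1.5-fold threshold, and 5 to 8 leaving out each pressure. The 2 higher members became 0 with a pseudocount of 5 FPKM, 1 with the trimmed mean, upper-quartile scaling or the exon-length trend removed, and 4 with a 1.5-fold threshold. A pseudocount of 0.1 FPKM added Car9 to the higher members and Ankrd37 and Pfkp to the lower ones. Leaving out the 50 most abundant genes added Bnip3l to the higher ones. The members' median difference of -0.34 from the control became -0.24 with no filter, -0.49 with the trimmed mean, -0.13 with the 50 most abundant genes left out, -0.20 with the exon-length trend removed and 0.09 with quantile normalization, and -0.39 to -0.29 leaving out each pressure. The median of all genes was 0.15 as deposited, 0.32 without the 50 most abundant genes and 0.00 with the trimmed mean, and relative to it the members' median was -0.48, -0.45 and -0.49, but 0.03 with quantile normalization. The mean differences of P4ha1 and Pgam1 from the control turned negative with the trimmed mean. The cause of these changes was not tested. With 1 library per condition a difference cannot be set against replicate error, and Ankrd37, Egln3, Adm and Car9 are further limited by low read numbers. No paired analysis was possible because each condition has 1 library.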
